A study of Mus musculus with 4 samples.

Results

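The IFIT family (interferon-induced proteins with tetratricopeptide repeats) was examined in mouse macrophages with and without a myeloid deletion of Mettl3. Its members here were 4 genes of 55401 in the deposited table, Ifit1, Ifit2, Ifit3 and Ifit3b, found by gene name, and all 4 passed the low-count filter that left 17260 genes for testing. They were chosen by the KO against WT difference of these same 4 libraries, in which earlier results had shown them higher in knockout (KO) than in control (WT) macrophages. The values of that contrast are therefore given for the members as a description, without a test. KO macrophages came from LysM-cre, Mettl3fl/fl mice and WT macrophages from Mettl3fl/fl mice, so that both groups carried the floxed Mettl3 allele and KO alone carried the recombinase. LysM-cre drives recombination from the Lyz2 locus, which is active in macrophages and other myeloid cells. Mice were C57BL/6 and 8 weeks old, and their bone marrow was grown into macrophages with M-CSF. Both groups were cultured for 24 h together with cells of the mouse colon carcinoma line MC38 before poly(A) RNA was sequenced. There were 2 libraries per group, numbered 1 and 3 in each, and they are called KO1, KO3, WT1 and WT3 below.

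IFIT proteins are made of tetratricopeptide repeats that form a pocket or a surface for RNA and protein partners. Ifit1 binds the ends of RNA that lack the ribose methylation next to the cap, a mark by which a cell tells its own mRNA from many viral RNAs, and blocks translation of the bound RNA. Transcription of the family is low at rest and is switched on when type I interferon activates the factor ISGF3, which binds the interferon-stimulated response element in promoters. Mettl3 carries the active site of the methyltransferase that adds N6-methyladenosine (m6A) to mRNA.

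Total counts ran between 55100415 and 79209870 per library, with KO3 the deepest, and between 20650 and 20986 genes had a count. A read pair may have given several counts, since between 38.7% and 39.5% of the counts from 1 to 24 were multiples of 4. Macrophage markers were abundant, with summed levels of 43326 and 44739.6 CPM (counts scaled for library size, with TMM factors) in KO1 and KO3, against 41419 and 56266 CPM in WT1 and WT3. Lyz2, which encodes lysozyme, had 25439 and 25777 CPM in KO1 and KO3, against 22059 and 40789.5 CPM in WT1 and WT3. Epithelial markers, listed to trace MC38 and other epithelial cells, summed to at most 1.52 CPM in any library. Of these, 8 of 12, Epcam and Krt8 among them, stood at 0 throughout. Whether MC38 cells express these markers was not examined, so the low sum does not show that the MC38 cells were absent. Fibroblast markers, by contrast, summed to 351 and 570.3 CPM in KO1 and KO3, against 444 and 891 CPM in WT1 and WT3, and 9 of 10 had a log2 fold change below 0. Neutrophil markers summed to 19.6 and 26.8 CPM in KO1 and KO3, against 14.8 and 18.7 CPM in WT1 and WT3, with 3 of 10 at 0 throughout, and dendritic cell markers to at most 6.60 CPM in any library. Lymphocyte markers, of which 3 of 10 passed the low-count filter, summed to 25.2 and 23.7 CPM in KO1 and KO3, against 17.5 and 24.2 CPM in WT1 and WT3. The log2 fold changes of those 3 ran from 0.05 to 7.50 with a median of 0.22, so the sums do not describe each marker. The part of these cells in the results was not tested. Mettl3 itself had 13.8 and 19.6 CPM in KO1 and KO3, against 18.3 and 23.2 CPM in WT1 and WT3. The groups overlapped, at -0.31 ± 0.27 on the log2 scale of KO over WT (± here and below is the standard error of the fit with 2 libraries in each group), and since the deleted exons are not named in the labels, a count over the whole gene does not check the deletion. The library number coincided with a sex-linked pattern: Xist had 1161 CPM in KO3 and 1350.0 CPM in WT3, and less than 1 CPM in KO1 and WT1, whereas Ddx3y had less than 1 CPM in KO3 and WT3, and 89.0 CPM in KO1 and 72.1 CPM in WT1. Number and sex cannot be told apart.

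The 4 genes lie in 1 cluster of 99.3 kb on chromosome 19, chr19:34550694-34650009, all on the plus strand, in the order Ifit2, Ifit3, Ifit3b, Ifit1. The coordinates are those of the deposited table, in which the members' starts and ends equal those of the GENCODE M21 annotation (GRCm38). The 200 bases before the annotated start are shown for the 3 members that hold the core of the interferon-stimulated response element there, since it is the sequence that links these genes to interferon (RefSeq, GRCm38.p6, plus strand). Capitals mark each match to GAAANNGAAA, searched on both strands with overlaps allowed, which reads TTTCNNTTTC on the strand shown. The windows span chr19:34640689-34640888 for Ifit1, chr19:34583329-34583528 for Ifit3 and chr19:34607757-34607956 for Ifit3b.
Ifit1: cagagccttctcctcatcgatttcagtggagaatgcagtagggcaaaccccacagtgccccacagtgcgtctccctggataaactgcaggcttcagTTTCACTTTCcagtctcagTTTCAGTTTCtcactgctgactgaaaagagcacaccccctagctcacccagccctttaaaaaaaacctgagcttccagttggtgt
Ifit3: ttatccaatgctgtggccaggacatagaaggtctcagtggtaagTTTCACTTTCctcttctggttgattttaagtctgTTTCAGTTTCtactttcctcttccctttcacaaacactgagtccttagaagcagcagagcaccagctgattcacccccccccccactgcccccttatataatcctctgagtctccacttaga
Ifit3b: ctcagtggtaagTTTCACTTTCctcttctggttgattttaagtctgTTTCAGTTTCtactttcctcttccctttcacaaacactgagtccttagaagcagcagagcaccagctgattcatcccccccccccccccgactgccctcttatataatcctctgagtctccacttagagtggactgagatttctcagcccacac
All 3 windows held the same pair of matches in the same order, TTTCACTTTC and then TTTCAGTTTC. The starts of the matches were 19 bases apart in Ifit1 and 34 bases apart in both Ifit3 and Ifit3b. The first match began 104 bases before the annotated start of Ifit1, 156 bases before that of Ifit3 and 188 bases before that of Ifit3b. Over all 27025 genes with a RefSeq window of 300 bases (250 before and 50 after the start), 3.99% held at least 1 match and 0.266% held 2 or more. The windows of Ifit3 and Ifit3b were 94.5% identical over 274 aligned positions, so these 2 genes are not separate cases. Among 37 other interferon-stimulated antiviral genes, 56.8% held at least 1 match and 24.3% held 2 or more, so the pair is not particular to the family. For Ifit2, neither of its 2 annotated windows held these letters, and 1 of them held TTCNNNGAA, the core of the gamma-activated site (GAS), which 9.55% of all genes had in a window. Both windows lie near the first base of Ifit2, which spans chr19:34550694-34576419. The rest of the gene was not searched, so Ifit2 is not shown to lack the element. Ifit1 shares its promoter region with Ifit1bl2, a family relative read from the other strand whose span in the table ends 128 bases before the start of Ifit1, so that the same 2 matches fall in the windows of both genes. A match is a description of the sequence and not a measured binding site.

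Ifit3 and Ifit3b are near-identical copies, which bears on every value given for them. Their coding sequences, 1209 bases each, differed at 11 positions and were 99.1% identical, whereas other pairs among the 4 members were 50.6% to 56.0% identical over the alignment. The stretch of 150 coding bases (1 read length) with the most differences held 4 of them. It is shown from chr19:34587194-34587343 for Ifit3 and chr19:34611564-34611713 for Ifit3b (GENCODE M21, GRCm38, plus strand), with the differing bases in capitals.
Ifit3: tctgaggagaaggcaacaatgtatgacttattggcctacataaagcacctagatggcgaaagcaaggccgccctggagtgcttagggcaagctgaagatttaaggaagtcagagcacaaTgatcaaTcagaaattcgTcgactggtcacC
Ifit3b: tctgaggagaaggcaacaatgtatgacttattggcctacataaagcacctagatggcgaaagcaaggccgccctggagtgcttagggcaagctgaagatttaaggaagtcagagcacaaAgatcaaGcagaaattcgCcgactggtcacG
Of all 150-base windows of the Ifit3 transcript, 18.5% occurred unchanged in the Ifit3b transcript, and 16.0% of the Ifit3b windows occurred in Ifit3. Ifit1 shared 1.24% of its windows, with Ifit1bl2, and Ifit2 shared none. No source used here says how reads with more than 1 match were divided, so the split between Ifit3 and Ifit3b is uncertain.

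All 4 members stood higher in both KO libraries than in either WT library, by between 2.98-fold and 4.62-fold in the fit over all genes. Across the 17260 tested genes, 13.1% had both KO libraries above both WT libraries. Summed over the family, the level was 249.9 and 424 CPM in KO1 and KO3, against 98.2 and 99.1 CPM in WT1 and WT3. The WT libraries were nearly equal, the KO libraries were not, and the summed difference was 2.54-fold within number 1 and 4.28-fold within number 3. In a bulk sample, more RNA per cell and a larger share of cells that express a gene cannot be told apart.

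**Figure D1:**
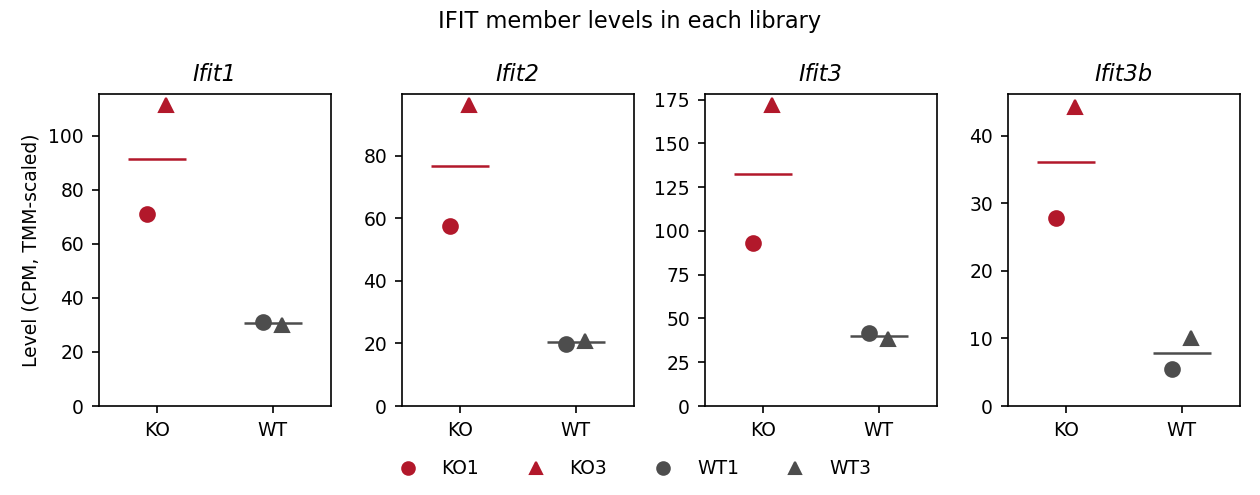
Levels of the 4 IFIT members in each library, in CPM on linear axes that start at 0 and differ between panels; circles are libraries numbered 1, triangles those numbered 3, and lines the mean of 2. In every panel both KO points lie above both WT points, and KO3 lies above KO1 (112 and 71.1 CPM for Ifit1).

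Ifit1, which binds RNA ends that lack the ribose methylation next to the cap, had 71.1 and 112 CPM in KO1 and KO3, against 31.2 and 30.1 CPM in WT1 and WT3. These values rest on 4447 and 8828 counts in KO1 and KO3, against 1696 and 1864 counts in WT1 and WT3. The groups did not overlap, and the WT libraries differed by far less than the KO libraries. At 1.57 ± 0.26, its log2 fold change was the smallest of the family, and the difference was 1.19 for number 1 alone and 1.89 for number 3 alone.

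Ifit2, whose human protein binds AU-rich RNA and associates with IFIT3, had 57.5 and 96.1 CPM in KO1 and KO3, against 19.9 and 20.9 CPM in WT1 and WT3. Again KO3 was the highest library and the groups were apart. Its log2 fold change came to 1.91 ± 0.30, with a difference of 1.53 for number 1 alone and 2.20 for number 3 alone. Of the 4 members, Ifit2 lay nearest to the family's mean profile over the libraries.

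Ifit3, known from the human protein to stabilise IFIT1 and to strengthen its RNA binding, had 93.4 and 172 CPM in KO1 and KO3, against 41.6 and 38.0 CPM in WT1 and WT3. Its log2 fold change came to 1.74 ± 0.33. Among the members it showed the widest gap between numbers, at 1.17 for number 1 alone and 2.17 for number 3 alone.

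Ifit3b, the mouse copy of Ifit3, had 27.9 and 44.3 CPM in KO1 and KO3, against 5.48 and 10.1 CPM in WT1 and WT3. WT1 was the lowest, on 298 counts against 628 in WT3, and the groups did not overlap. Its log2 fold change of 2.21 ± 0.42 was the largest of the family, and unlike the other members its difference was no larger within number 3 (2.13) than for number 1 alone (2.34). With the counts of Ifit3 and Ifit3b summed to 1 gene, the log2 fold change was 1.82 ± 0.32. This value does not depend on the split between the copies if each shared read was counted once, which is not known.

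Per length, in FPKM (fragments scaled by gene length and library size, as the authors deposited them), the order of levels was Ifit3, then Ifit1, then Ifit2, then Ifit3b. Ifit3 averaged 68.1 ± 28.1 FPKM in KO and 20.6 ± 0.963 FPKM in WT (SD, n = 2 each). Ifit1 followed with 30.8 ± 9.45 FPKM in KO and 10.4 ± 0.0934 FPKM in WT (SD, n = 2 each). Ifit2 averaged 17.5 ± 6.12 FPKM in KO and 4.69 ± 0.228 FPKM in WT, and Ifit3b 16.2 ± 5.11 FPKM in KO and 3.53 ± 1.54 FPKM in WT (SD, n = 2 each). The order held in each of the 4 libraries, although Ifit2 and Ifit3b were within their spread of each other in KO. Ifit3 made up 49.1% and 52.6% of the family's FPKM in KO1 and KO3, against 54.9% and 50.1% in WT1 and WT3. The share of Ifit3b was 12.8% and 11.8% in KO1 and KO3, against 6.30% and 11.6% in WT1 and WT3, so that WT1 stood apart from the other 3 libraries. By mean FPKM over the 2 WT libraries, Ifit3 exceeded 87.9% of tested genes, Ifit1 77.3%, Ifit2 60.7% and Ifit3b 55.1%.

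The members' transcripts were searched for GGACT, the best-known sequence context of m6A. GGACT occurred 2 times in the longest Ifit1 transcript, 4 times in Ifit2, 1 time in Ifit3 and not at all in Ifit3b. This gave densities of 0.753, 1.05, 0.573 and 0 per kb in that order, set against a median of 1.01 per kb and quartiles of 0.561 and 1.50 per kb over 21877 protein-coding genes. No m6A measurement was analysed here, and the letters show no methylation.

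Differences between library numbers were tested, because that contrast did not choose the members. None of the 4 members passed the threshold (adjusted p under 0.05) in edgeR's quasi-likelihood test with Benjamini-Hochberg adjustment, while 0.707% of all tested genes did. Ifit3b came closest, with 44.3 CPM in KO3 and 27.9 CPM in KO1, and 10.1 CPM in WT3 and 5.48 CPM in WT1. It was higher under number 3 in both genotypes, and the log2 difference between numbers was 0.77 ± 0.16 (SE, 4 libraries; edgeR's adjusted p = 0.138, unadjusted p = 0.0070). DESeq2, as an alternative, gave 0.78 with an adjusted p of 0.0497, so the call depends on the tool. For this contrast DESeq2 called 1233 of 16804 genes, and edgeR 122 of 17260. For the other members the adjusted p in edgeR's test was 0.528 for Ifit1 (log2 difference 0.30 ± 0.21), 0.402 for Ifit2 (0.41 ± 0.21) and 0.546 for Ifit3 (0.38 ± 0.28).

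The number difference of these 3 members was seen in KO and hardly in WT. Ifit1 differed by 0.65 in KO and by -0.05 in WT, on the log2 scale of number 3 minus number 1. Ifit2 differed by 0.74 in KO and by 0.06 in WT, and Ifit3 by 0.88 in KO and by -0.13 in WT. Only Ifit3b among the members differed as much in WT (0.88) as in KO (0.67). With 1 library for each combination of genotype and number, whether the number difference depends on genotype could not be tested.

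**Figure D2:**
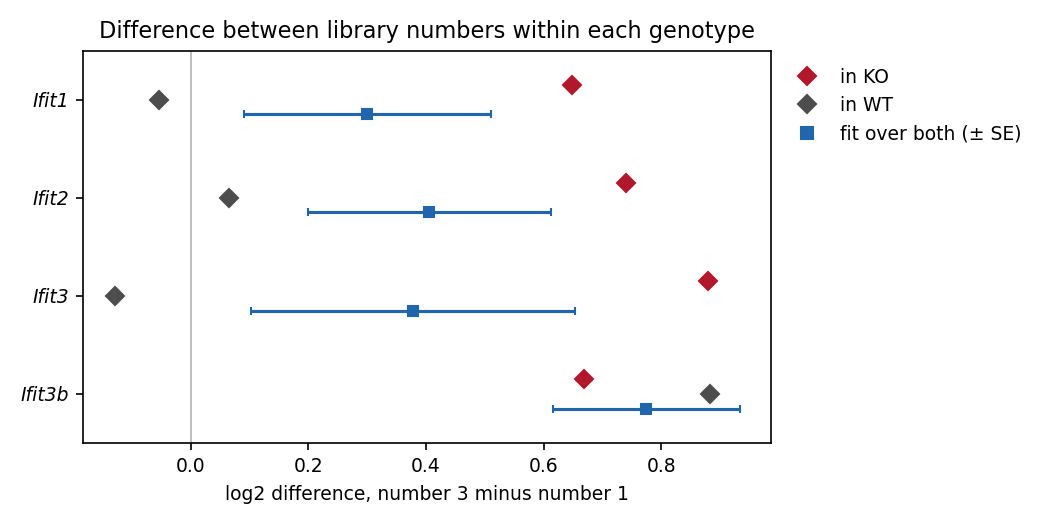
Log2 difference of number 3 minus number 1 for each member within KO (red diamonds), within WT (grey diamonds) and in the fit over both genotypes (blue squares, bars ± SE). Ifit1, Ifit2 and Ifit3 lie near 0 in WT (-0.05, 0.06 and -0.13) and between 0.65 and 0.88 in KO, and Ifit3b lies at 0.67 in KO and 0.88 in WT.

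The genes around the members were compared to see how far along the chromosome the difference reached. Both relatives inside the cluster were higher in both KO libraries, and none of the 3 tested flanking genes was. Ifit1bl1, an Ifit1-like gene, had 6.33 and 6.05 CPM in KO1 and KO3, against 2.36 and 1.60 CPM in WT1 and WT3. Its log2 fold change of 1.65 ± 0.36 had an unadjusted p of 0.0076 and an adjusted p of 0.99995 in edgeR's test, and an adjusted p of 0.0356 in DESeq2. Unlike the members, its 2 KO libraries were nearly equal. Ifit1bl2 was low in every library, with 0.703 and 1.49 CPM in KO1 and KO3, against 0.570 and 0.403 CPM in WT1 and WT3, and a log2 fold change of 1.17 ± 0.64.

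Outside the cluster, Lipa, the lysosomal acid lipase gene, lies 23.2 kb before it and had 430.2 and 575 CPM in KO1 and KO3, against 359 and 613 CPM in WT1 and WT3. Its log2 fold change was 0.05 ± 0.33. Ch25h, which makes the antiviral oxysterol 25-hydroxycholesterol and is itself interferon-inducible, had 0.576 and 1.78 CPM in KO1 and KO3, against 0.497 and 1.79 CPM in WT1 and WT3, with a log2 fold change of 0.04 ± 0.89. Pank1, a pantothenate kinase of coenzyme A synthesis, had a log2 fold change of 0.10 ± 0.34. In all 3 flanking genes the KO and WT libraries overlapped. Slc16a12, a monocarboxylate transporter gene, had at most 0.194 CPM and was not tested.

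**Figure D3:**
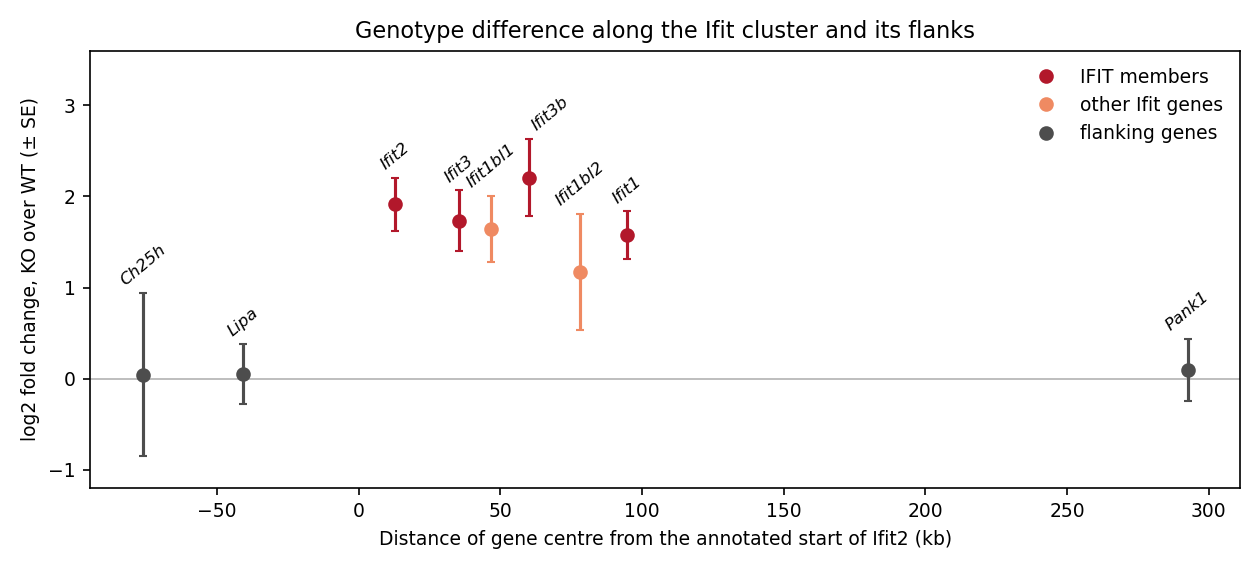
Log2 fold change of KO over WT (points, bars ± SE, n = 2 per group) against the distance of each gene's centre from the annotated start of Ifit2, in kb. The 4 members (red) lie between 1.57 and 2.21, the 2 other Ifit genes (orange) at 1.65 and 1.17, and the 3 tested flanking genes (grey) between 0.04 and 0.10.

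No gene of the table passed edgeR's quasi-likelihood test between genotypes after Benjamini-Hochberg adjustment (0 of 17260, or 0%, higher in KO), and 391 had an unadjusted p under 0.05. DESeq2 called 74 of 17776 genes, of which 42, or 0.236%, were higher in KO. The labels call the replicates biological but do not say how cultures or animals were divided, so these p-values measure the spread between these libraries. The lists below are therefore described by counts and medians, beside a median of 0.00 and a share of 49.8% above 0 over all tested genes. Of these 17260 genes, 2258, or 13.1%, had both KO libraries above both WT libraries, and 2316 had both below. Counts of such genes in a list are to be read beside these shares.

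Ligands of the pathway stood at or close to 0. Of 17 type I interferon genes, 15 had a count of 0 in all 4 libraries, Ifnb1 and the Ifna genes among them. A count of 0 allows up to 3 counts, or 0.0379 to 0.0544 CPM depending on the library. This limit takes each count as a separate read pair, and is too low if a read pair gave several counts. Ifnk had 12 counts in WT3 alone, and Ifnz had 2 counts in KO3 and 4 in WT1.

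Receptors and their kinases had small fold changes, with a median log2 fold change of 0.05 over 8 tested genes and none with the KO libraries above both WT libraries. Ifnar2, a chain of the type I interferon receptor, had 167 and 222 CPM in KO1 and KO3, against 174 and 215 CPM in WT1 and WT3. Ifngr2, a chain of the interferon gamma receptor, had 187 and 254 CPM in KO1 and KO3, against 192 and 223 CPM in WT1 and WT3. Both genes overlapped between groups.

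The factors downstream of the receptor were mixed, with a median log2 fold change of -0.09 over 11 genes, and with both KO libraries above both WT libraries in 4 of 11 and below both in 2 of 11. Stat2, a subunit of ISGF3, had 259 and 284 CPM in KO1 and KO3, against 180.4 and 114 CPM in WT1 and WT3, a log2 fold change of 0.88 ± 0.27 (edgeR's adjusted p = 0.99995). The groups did not overlap. Irf9, a subunit of ISGF3 named after its values were seen, had 55.4 and 68.8 CPM in KO1 and KO3, against 66.2 and 72.7 CPM in WT1 and WT3, and overlapped. Irf7 and Irf1, named after their values were seen too, also had both KO libraries higher, at log2 fold changes of 0.75 and 0.22, whereas Irf8 and Irf5 had both KO libraries below both WT libraries, at -0.60 and -0.26.

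Among 18 RNA and DNA sensors and adaptors the median log2 fold change was 0.22, the range was -0.36 to 0.82, and 8 had both KO libraries above both WT libraries. The 2 most abundant differed little: Myd88, the adaptor of most Toll-like receptors, had a log2 fold change of 0.05, and Ikbke, a kinase that activates Irf3 and Irf7, of 0.12. Chosen after their values were seen, the RNA sensors Ifih1 (0.65) and Dhx58 (0.75) and the nucleic acid sensor Zbp1 (0.82) had larger log2 fold changes, and each is itself interferon-inducible. Signalling inhibitors had a median of 0.03 over 12 genes. Ptpn6, a phosphatase that acts on JAK signalling, had a log2 fold change of 0.16, and Socs3, an inhibitor of JAK and STAT3 signalling, of -0.17. The largest fold changes of the list in each direction, named after their values were seen, were those of Usp18, which removes Isg15 and dampens the type I interferon receptor, at 0.99 ± 0.20, and of Socs1, an inhibitor of JAK kinases, at -2.46 ± 1.14. Socs1 had 0.208 and 1.17 CPM in KO1 and KO3, against 6.26 and 1.39 CPM in WT1 and WT3, so the groups did not overlap and WT1 stood far above the rest.

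Other interferon-stimulated antiviral genes had values in the members' direction. All 46 tested genes of the 47 listed had a log2 fold change above 0, with a median of 0.75, and 35 of 46 had both KO libraries above both WT libraries. edgeR's test called none of them, 25 had an unadjusted p under 0.05, and DESeq2 called 5, Mx1, Cmpk2, Rsad2, Rtp4 and Cxcl10, which were named after their values were seen. Earlier results of these data had already shown this direction, so the list gives no independent support. The 2 most abundant members of the list differed from each other: Ifitm3, which blocks viral entry, had a log2 fold change of 0.04, and Bst2, the virion tether tetherin, of 0.54, and in both the groups overlapped. The median log2 difference of the list was 0.46 within number 1 and 1.03 within number 3, the order also seen in Ifit1, Ifit2 and Ifit3.

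**Figure D4:**
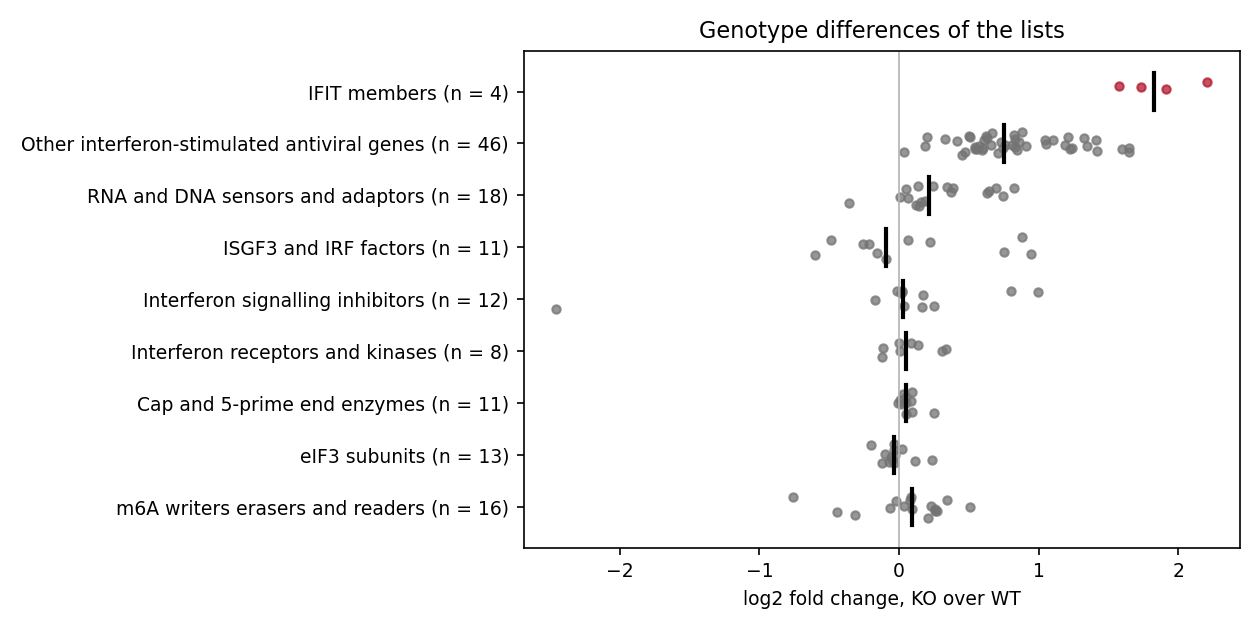
Log2 fold change of KO over WT for each tested gene of 9 lists (points, with a small vertical scatter for legibility) and the median of each list (black lines). The IFIT members lie between 1.57 and 2.21, the 46 other interferon-stimulated genes have a median of 0.75, and the medians of the remaining lists lie between -0.09 and 0.22.

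The cap and eIF3 genes had log2 fold changes near 0. Of 11 enzymes and factors of the mRNA cap, which include those that make the methylation Ifit1 reads, the median log2 fold change was 0.05 and the range -0.01 to 0.25. Ramac, the activating subunit of the cap methyltransferase, had 36.2 and 43.1 CPM in KO1 and KO3, against 37.4 and 39.2 CPM in WT1 and WT3. Ncbp2, a cap-binding protein, had 43.5 and 42.0 CPM in KO1 and KO3, against 40.7 and 41.8 CPM in WT1 and WT3. Both had a log2 fold change of 0.05. For the 13 subunits of eIF3, the translation initiation factor that human IFIT1 and IFIT2 bind, the median was -0.04 and the range -0.20 to 0.24. Eif3h had a log2 fold change of -0.05 and Eif3c of -0.03. The m6A list had a median of 0.09 over 16 genes and a wider range, -0.76 to 0.51, with both KO libraries above both WT libraries in 6 and below both in 3. Those 3, named after their values were seen, were the writer subunits Mettl14 (-0.76), Wtap (-0.44) and Rbm15b (-0.06). Its 2 most abundant genes, the reader Ythdf3 and the eraser Alkbh5, had log2 fold changes of 0.04 and -0.02.

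Of the 10 genes whose profile over the 4 libraries was most like that of the members, 4 were on the list of other interferon-stimulated genes. That list of 47 genes is a selection, so absence from it does not mean that a gene is not interferon-inducible. Likeness was the Euclidean distance between a gene's log2 CPM, centred on its own mean, and the members' mean centred profile, over 11506 genes with a mean of at least 1 CPM and a symbol that is not a predicted one. The profile is dominated by the genotype difference, so closeness repeats the contrast that chose the members, and 4 libraries are few. The 10 nearest genes had distances of 0.178 to 0.505, against a median of 1.95 over all genes compared, and the members themselves had distances of 0.0972 (Ifit2) to 0.637 (Ifit3b).

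Tnfsf10, which encodes the death ligand TRAIL, was nearest, with 2.91 and 4.81 CPM in KO1 and KO3, against 1.01 and 1.29 CPM in WT1 and WT3. Apol7c, an apolipoprotein L gene, had 1.89 and 2.60 CPM in KO1 and KO3, against 0.607 and 0.710 CPM in WT1 and WT3. Mx1, a GTPase that blocks viral replication, had 29.3 and 47.0 CPM in KO1 and KO3, against 10.9 and 13.5 CPM in WT1 and WT3. All 3 repeated the members' order, with KO3 highest, KO1 next and both WT libraries low. The others were Ifi214, Tgtp1, Txnl4a, Phf11, Cmpk2, Isg15 and Cxcl10, in order of distance. Isg15, the ubiquitin-like modifier, showed the widest log2 gap between KO libraries of the 10, with 49.2 and 120.0 CPM in KO1 and KO3, against 24.5 and 29.5 CPM in WT1 and WT3. Txnl4a, a core component of the spliceosome, had 11.6 and 13.8 CPM in KO1 and KO3, against 2.94 and 4.24 CPM in WT1 and WT3, with log2 differences of 1.97 for number 1 and 1.70 for number 3.

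**Figure D5:**
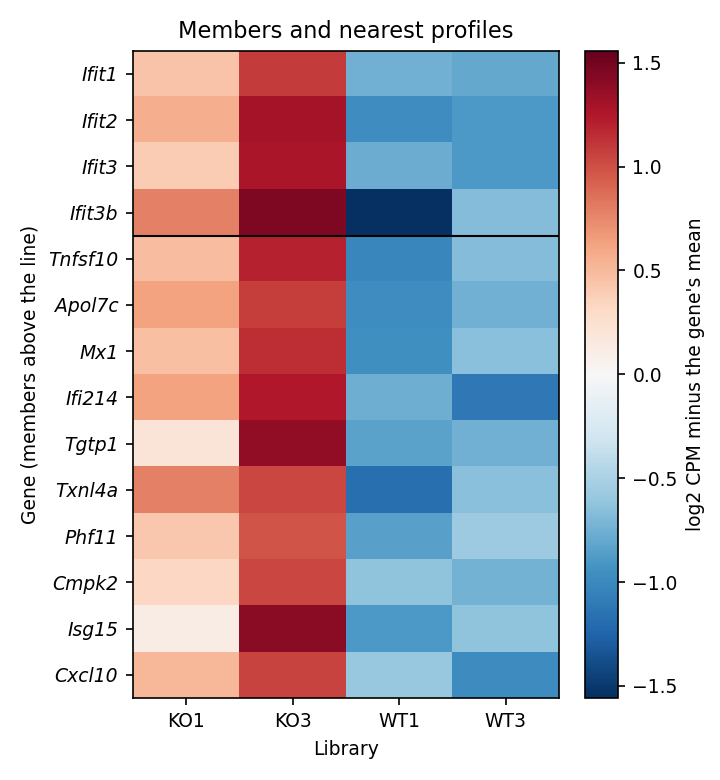
Centred log2 CPM (each gene's value minus its mean over the 4 libraries) of the 4 members, above the line, and the 10 genes with the nearest profiles, below it, in KO1, KO3, WT1 and WT3. Red is above and blue below the gene's mean; KO3 is the reddest column in all 14 genes, and Ifit3b in WT1 is the lowest cell.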

How the data were processed

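Per the labels' protocols, poly(A) RNA was turned into strand-marked (dUTP) libraries and sequenced from both ends. The submitters' processing notes name cutadapt 1.9, HISAT2 2.0.4, StringTie 1.3.4d, edgeR and DESeq2, with no genome build (not given in the sources used here). Per the file headers, the table of the authors holds estimated counts beside FPKM for every gene. As deposited, the estimated counts were whole and not normalized, and the deposited FPKM had been scaled by length and depth. A further 4 value columns matched no sample and were not used.

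The count test was edgeR's quasi-likelihood test (version 4.0.16 under R 4.3.3, TMM, filterByExpr, two-sided, Benjamini-Hochberg adjustment over 17260 genes, threshold 0.05), with genotype alone for KO against WT and with genotype as covariate for number 3 against number 1. CPM used the TMM-scaled library sizes, and log2 CPM a prior count of 2. Limits on counts cover counting error only. The fitting code was tested on simulated data.

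The members and lists were chosen with earlier results of these data known. Named genes were the members, Mettl3, Lyz2, protein-coding genes that start within 250 kb of the cluster, the 2 genes of highest mean FPKM of each list without a call, and the 10 nearest profiles. The result of 1 list gene is not reported here. Xist and Ddx3y were added to describe the library numbers. Alternatives were DESeq2 1.42.0, other scalings, no filter, limma 3.58.1 on log2(FPKM + 1) and log2(FPKM + 0.1), leaving out each library, a replicate block, and, chosen after seeing the data, counts divided by 4, a bias-adjusted edgeR fit and DESeq2 with the block. Sequences came from RefSeq (GRCm38.p6) and GENCODE M21.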

Additional observations from a re-analysis of the deposited data

Results flagged for a closer look

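For 13 of the 37 named genes the KO minus WT difference had opposite signs within number 1 and within number 3. Among all tested genes 46.9% did. None of the 4 IFIT members could be among the 13, since in each both KO libraries lay above both WT libraries. The same held for the 10 nearest profiles, which were picked for likeness to the members. The choice of named genes thus lowered their share, which is not to be read against the 46.9%. With 1 library for each genotype and number, the difference between numbers was not tested for any of the 13. All values here are log2 differences of KO minus WT. Near the cluster, Lipa had 0.26 within number 1 and -0.0923 within number 3, and Ch25h had 0.20 within number 1 and -0.0083 within number 3. Lyz2 had 0.21 within number 1 and -0.66 within number 3, the widest split of the 13. Of the cap and eIF3 genes, Ramac had -0.0461 within number 1 and 0.14 within number 3, and Eif3c had 0.10 within number 1 and -0.14 within number 3. Of the receptors, Ifnar2 had -0.0552 within number 1 and 0.0493 within number 3, and Ifngr2 had -0.0407 within number 1 and 0.18 within number 3. Of the signalling genes, Ikbke had -0.0459 within number 1 and 0.29 within number 3, Ptpn6 had 0.36 within number 1 and -0.0046 within number 3, and Socs3 had -0.28 within number 1 and 0.0411 within number 3. Ifitm3 had -0.13 within number 1 and 0.24 within number 3. Of the m6A genes, Ythdf3 had -0.0358 within number 1 and 0.10 within number 3, and Alkbh5 had -0.14 within number 1 and 0.13 within number 3.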

How the results depend on the processing

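Each member's KO over WT log2 fold change stayed above 0 under every alternative run. The members were chosen by this contrast, with both KO libraries above both WT libraries, so leaving out 1 library could not reverse the sign. Leaving out 1 library at a time gave log2 fold changes of 1.21 to 1.88 for Ifit1, 1.49 to 2.25 for Ifit2, 1.23 to 2.13 for Ifit3 and 1.83 to 2.72 for Ifit3b. For Ifit1, Ifit2 and Ifit3 the lowest value was the one without KO3 and the highest the one without KO1. The number of genes called between genotypes was 0 in edgeR's main test and 0 under every edgeR and limma alternative, but 74 in DESeq2 and 175 in DESeq2 with the replicate block; the cause was not tested. For the difference between library numbers, leaving out 1 library gave -0.0531 to 0.65 for Ifit1 and -0.13 to 0.88 for Ifit3 (log2), without a test, since 1 genotype then has 1 library. Ifit3b passed the threshold in DESeq2, with a log2 difference of 0.78 and an adjusted p of 0.0497, and in no other alternative that gave a test. DESeq2 called 1233 of 16804 genes for that contrast. With the replicate block the log2 fold changes were 1.54 for Ifit1, 1.87 for Ifit2, 1.67 for Ifit3 and 2.24 for Ifit3b, and edgeR called 0 genes. The labels do not say that equal numbers pair the libraries. Across 17260 genes the deviations of same-numbered libraries from their group means had a correlation of 0.42, but 2 pairs are too few to establish a pairing. With 2 libraries per group, precision was set by the spread between libraries, which was widest between KO1 and KO3 for Ifit1, Ifit2 and Ifit3 and between WT1 and WT3 for Ifit3b.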
